A study of Mus musculus with 4 samples.

Results

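The Toll-like receptors (TLRs) Tlr1, Tlr2, Tlr3, Tlr4, Tlr5, Tlr6, Tlr7, Tlr8, Tlr9 and Tlr13 were followed in salivary glands (SGs) of mice with and without MyD88, the adaptor through which most of them signal. The members were chosen by gene name, and all 10 were on the array, out of 34844 gene names with a probe. The differences of these receptors between the genotypes were of a usual size for these arrays. Of the 8 receptors that could be tested, 0 passed the adjusted threshold, as did 0 of all 22317 genes tested. With the brightest probe of each gene, the mean was higher in Myd88-/- mice for 6 of them and lower for 2, beside 59.6% of all genes higher. The largest of these differences was 1.4-fold (Tlr2). A second, dimmer probe of Tlr7 differed in the other direction (-0.73 in log2 units), and with the mean of a gene's probes 5 of 8 were higher.

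TLRs are membrane receptors that recognise conserved parts of microbes and start the transcription of cytokines and antimicrobial factors. Tlr1, Tlr2, Tlr4, Tlr5 and Tlr6 work mainly at the cell surface on lipids and proteins of bacteria and fungi, while Tlr3, Tlr7, Tlr8, Tlr9 and Tlr13 sit in endosomes and sense nucleic acids. Nearly all of them pass their signal to MyD88, whereas Tlr3 uses the adaptor TRIF (Ticam1) and Tlr4 uses both.

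Total RNA of submandibular plus sublingual glands was hybridised to 1-colour whole mouse genome arrays, 2 for Myd88-/- mice and 2 for Myd88+/+ mice. The labels give all mice as C57/BL6 females of 10 weeks, without treatment. The Myd88-/- mice were a backcrossed knockout line not limited to a tissue, and both genotypes came from heterozygous parents, per the study's methods. Those methods describe dissection to remove lymph nodes, connective tissue and fat. Markers of fat cells, lymphocytes and skeletal muscle were still detected on some or all arrays, with values given below. Nothing in the labels says that the 2 arrays of a genotype came from separate animals, so that the p-values measure the spread between these RNA samples only, and the study's text names SMGs where the labels name both glands.

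Each array held 59305 spots of 55681 probes, all on 1 slide, and 0 probes were saturated. Probes well above background made up 52.2% and 68.4% in Myd88-/- mice and 74.1% and 55.1% in Myd88+/+ mice, and dim probes were thus detected less often on 1 array of each genotype. All 10 salivary gland marker genes were well above background on all 4 arrays. The probe of Myd88 itself (chr9:119245322-119245381) lay at 1.51 and 1.41 in Myd88-/- mice and at 1.15 and 1.07 in Myd88+/+ mice, in log2 signal relative to the 75th percentile of the array. It was not lower in Myd88-/- mice (adjusted p = 0.264, limma), and since the deleted exons are not given in the sources used here, this probe does not check the labels. Values below are on the same scale, on which 0 is the 75th percentile of an array, and differences are Myd88-/- minus Myd88+/+ in log2 units with the standard error (SE) of limma.

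Tlr2, the receptor for bacterial lipoproteins, gave the largest difference among the tested receptors. Its probe is read from 10 spots per array and lies at chr3:83640344-83640403 on the minus strand (mm9), starting at base 2645 of the transcript. The last 30 bases of this probe are shown because they hold the polyadenylation signal AATAAA, in capitals. This hexamer occurred in 4 of the 14 receptor probes and in 10.1% of all probes, and its reverse complement TTTATT in 3.74% of all.
Tlr2 probe, bases 31 to 60: gggtaaatctgagaactgcAATAAAgtcct
The signal of Tlr2 was 0.49 and 0.73 in Myd88-/- mice and 0.27 and -0.01 in Myd88+/+ mice. Both Myd88-/- arrays lay above both Myd88+/+ arrays. The difference was 0.48 (SE 0.16, 95% interval 0.01 to 0.95, 2 arrays a group), with an adjusted p of 0.292 in limma. Copies of the probe on 1 array varied by an SD of 0.0555 to 0.0948, less than the spread between the arrays of a genotype (SD 0.17 and 0.20).

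Tlr1 and Tlr6 are the partners with which Tlr2 forms heterodimers, and their probes lie 28250 bases apart on chromosome 5. The signal of Tlr1 (chr5:65316115-65316174, minus strand) was -0.79 and -0.61 in Myd88-/- mice and -0.34 and -0.54 in Myd88+/+ mice. Both Myd88-/- arrays lay below both Myd88+/+ arrays, the opposite order to Tlr2. The difference was -0.26 (SE 0.13, 95% interval -0.65 to 0.12, adjusted p = 0.424). Tlr6 (chr5:65344365-65344424, minus strand) stood at -2.91 and -2.62 in Myd88-/- mice and at -2.73 and -2.62 in Myd88+/+ mice. Its arrays overlapped between the genotypes, and the difference of -0.09 (SE 0.15, 95% interval -0.52 to 0.33, adjusted p = 0.792) was smaller than its error. Whether the difference of Tlr2 departs from those of its partners was not tested, since each comes from another probe of the same arrays.

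Tlr4 binds lipopolysaccharide together with MD-2. Its bright probe, in 2 copies at chr4:66503470-66503529 on the plus strand, read -0.92 and -0.86 in Myd88-/- mice and -1.0 and -1.2 in Myd88+/+ mice. The Myd88-/- arrays were higher without overlap, by 0.21 (SE 0.12, 95% interval -0.14 to 0.55, adjusted p = 0.460). The copies of the probe differed on 1 array by an SD of up to 0.181, close to the difference itself. A second Tlr4 probe, 86607 bases away and designed on another transcript, was above background on 0 of 4 arrays.

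Tlr5, the flagellin receptor, was at the limit of detection. Its probe (chr1:184906031-184906090, plus strand) read -4.59 and -2.86 in Myd88-/- mice and -3.72 and -4.52 in Myd88+/+ mice. It was well above background on Myd88-/- array 2 and Myd88+/+ array 1, which are the arrays with the most probes above background. No difference was tested for it.

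Among the endosomal receptors, Tlr3 senses double-stranded RNA and does not use MyD88. The Tlr3 probe (chr8:46481729-46481788, minus strand) read -1.85 and -2.01 in Myd88-/- mice and -2.22 and -2.21 in Myd88+/+ mice. Every Myd88-/- array was above every Myd88+/+ array, and the difference was 0.28 (SE 0.11, 95% interval -0.04 to 0.60, adjusted p = 0.334).

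Tlr9 senses unmethylated CpG DNA and is best known from B cells and plasmacytoid dendritic cells. Its probe (chr9:106128979-106129038, plus strand) gave 2.59 and 2.47 in Myd88-/- mice and 2.46 and 2.46 in Myd88+/+ mice. The lowest Myd88-/- array and the highest Myd88+/+ array were nearly level, and the difference was 0.07 (SE 0.11, 95% interval -0.23 to 0.37, adjusted p = 0.780). Tlr13, a mouse receptor for bacterial ribosomal RNA, read 0.03 and 0.05 in Myd88-/- mice and -0.15 and -0.11 in Myd88+/+ mice (chrX:103355773-103355832, plus strand). Replicate arrays lay close together and the genotypes did not overlap, and the difference was 0.18 (SE 0.10, 95% interval -0.10 to 0.45, adjusted p = 0.443). The Tlr13 probe shares a run of at least 20 bases with 1 other probe of the array, so that its signal may not come from Tlr13 alone.

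Tlr8, the neighbour of Tlr7 on the X chromosome, was barely measured. Its brighter probe (chrX:163680626-163680685, minus strand) read -3.72 and -4.16 in Myd88-/- mice and -4.69 and -5.91 in Myd88+/+ mice. It was well above background on Myd88-/- array 1 only, and no fold is given for it. The other Tlr8 probe, 2730 bases away, was above background on 0 arrays.

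**Figure D1:**
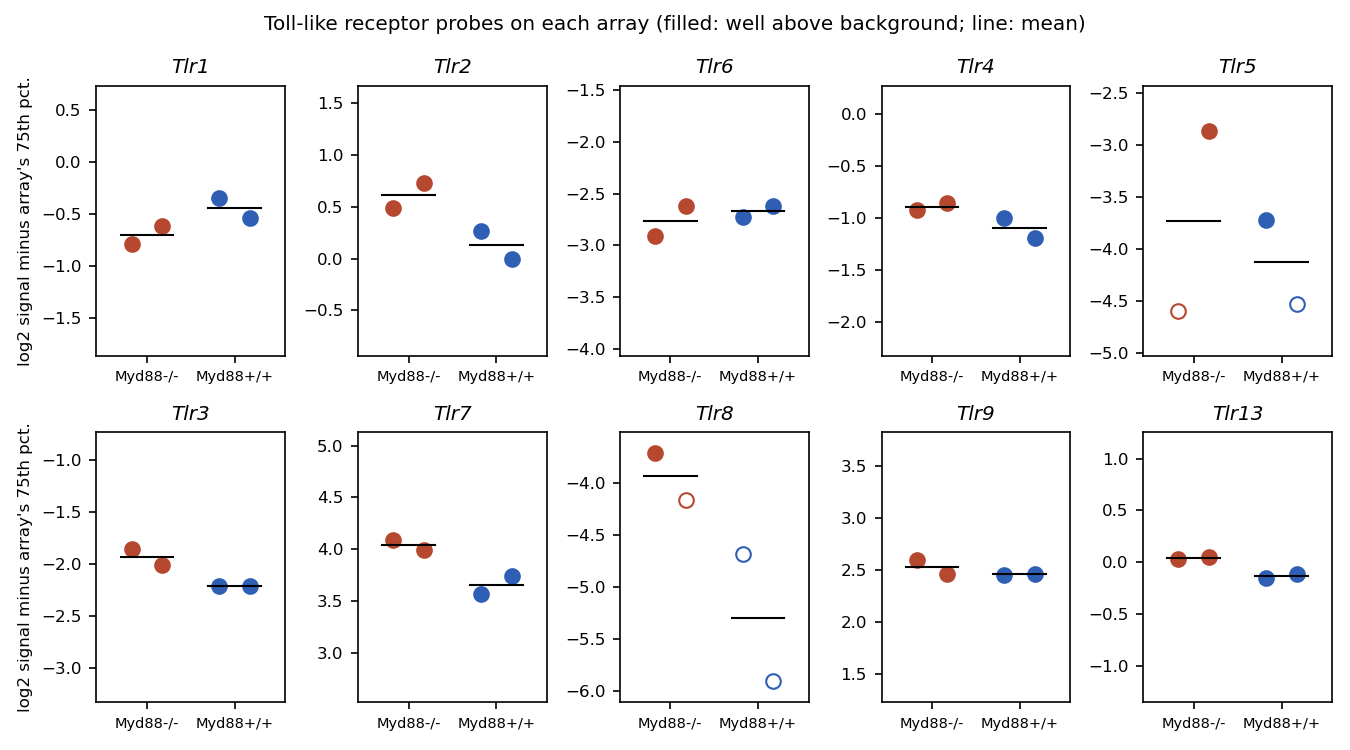
Log2 signal relative to the 75th percentile of the array (vertical axis, the same span of 2.6 log2 units in each panel) for the brightest probe of each receptor, with 1 point per array in Myd88-/- mice (red) and Myd88+/+ mice (blue), filled where the probe was well above background, and a line at the mean of 2 arrays. Tlr2 and Tlr7 show the widest separation among receptors measured on all 4 arrays, Tlr6 overlaps, and Tlr5 and Tlr8 have open points.

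Tlr7, the receptor for single-stranded RNA, is represented by 3 probes, and these did not give the same picture. The bright probe lies at chrX:163742863-163742922 on the minus strand and starts at base 3686 of the transcript. The second starts at base 3403 of the same transcript, 283 bases away (chrX:163743146-163743205). The first 30 bases of both are shown because the bright one opens with 11 bases of a TC repeat, in capitals, which the second does not have.
Tlr7 probe at 3686, bases 1 to 30: TCTCTCTCTCTgatactgaactgtaccaga
Tlr7 probe at 3403, bases 1 to 30: cataaatgaaggtctgaatttttcctaaca
The bright probe read 4.09 and 3.99 in Myd88-/- mice and 3.57 and 3.74 in Myd88+/+ mice. Both Myd88-/- arrays lay above both Myd88+/+ arrays, and the difference was 0.39 (SE 0.12, 95% interval 0.04 to 0.73, adjusted p = 0.269).

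The second Tlr7 probe differed in the other direction. It read -3.90 and -2.99 in Myd88-/- mice and -2.72 and -2.70 in Myd88+/+ mice, and on Myd88-/- array 1 it was not well above background. Both Myd88-/- arrays were the lower ones here, and the difference in the fit over all probes was -0.73 (SE 0.35, adjusted p = 0.438). The third probe, on another transcript at base 211, was above background on 0 arrays. With the mean of the probes in place of the brightest, the sign for Tlr7 turned, to -0.17.

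After these values had been seen, all probes of the array were searched for the run TCTCTCTCTCT, and on the opposite strand for AGAGAGAGAGA. The TC run was found in 32 of 55681 probes (0.0575%), among them the bright Tlr7 probe, the AG run in 37 (0.0664%), and 0 probes held both. The other 31 probes, which belong to other genes, were well above background on all 4 arrays in 31 of 31 cases, against 50.2% of all probes. Their median signal was 5.07 and 4.88 on the Myd88-/- arrays and 4.75 and 4.87 on the Myd88+/+ arrays.

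The difference between the genotypes was above 0 for 30 of these 31 probes, with a median of 0.40 and a range of -0.01 to 0.67. The 0.39 of the bright Tlr7 probe stood in the middle of them, with 16 of the 31 above it. The 37 probes with the AG run had a median difference of 0.04 (-1.06 to 1.40), 21 of them above 0. Whether the signal of the bright Tlr7 probe comes from Tlr7 messenger RNA or from the repeat was not tested, and the level and difference of Tlr7 are therefore given per probe.

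**Figure D2:**
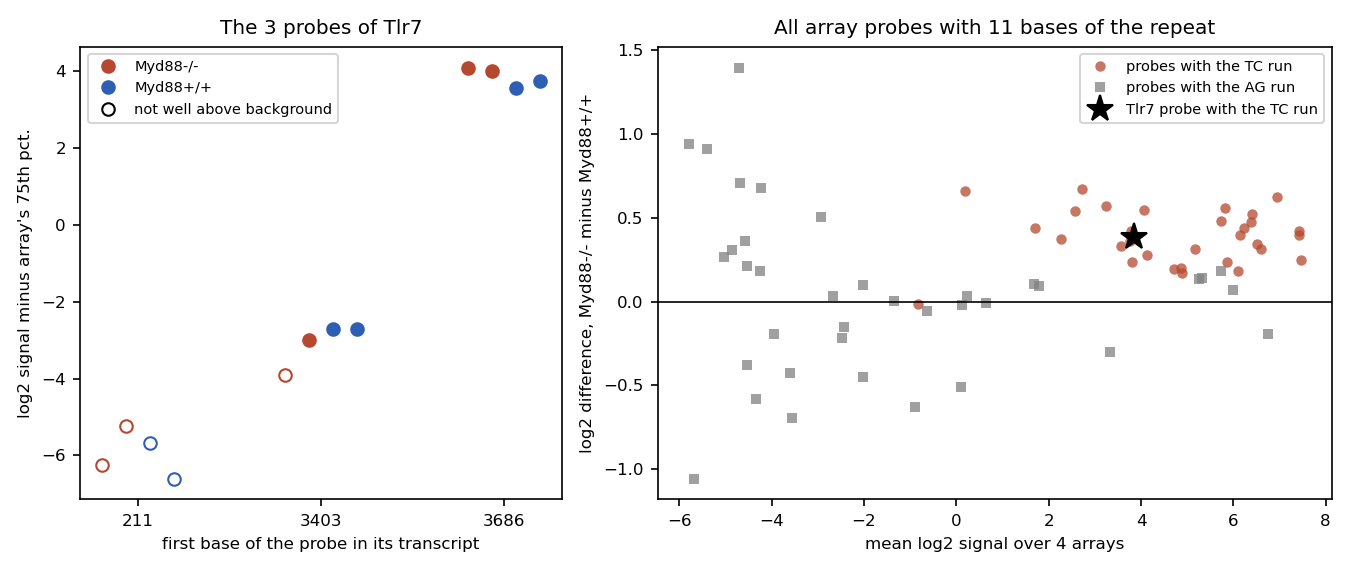
Left, log2 signal relative to the 75th percentile of the array for the 3 Tlr7 probes, placed by their first base in the transcript (evenly spaced, not to scale), with 1 point per array, red for Myd88-/- and blue for Myd88+/+, open where not well above background. Right, the log2 difference between genotypes against the mean log2 signal for every probe with the TC run (circles) or the AG run (squares), where the Tlr7 probe (star, 0.39) lies among the other 31 TC probes, whose median is 0.40.

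Counted together, 0 of the 8 tested receptors passed an adjusted p of 0.05, as did 0 of the 22317 genes tested (percentage called 0%), the smallest adjusted p of any gene being 0.194. An unadjusted p under 0.05 was reached by 2 of 8, Tlr2 and Tlr7, beside 16.6% of all genes in either direction and 9.81% in the higher direction. With any 1 array left out, this number was 0. With 2 arrays against 2, an exact permutation test of a single gene could not give a p below 0.333. The arrays did not overlap for 7 of 8 receptors, 6 higher and 1 lower in Myd88-/- mice, beside 51.9% of all genes (33.2% higher, 18.7% lower). When arrays were scaled by their median instead, 1 of 8 receptors had arrays without overlap, beside 13.7% of all genes, and 6 of 8 had a difference above 0.

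The differences were of a usual size for these arrays. Their median absolute difference was 0.23, which exceeded that of 57.2% of all genes, whose median was 0.20. Their median signed difference was 0.19 against 0.06 for all genes, of which 59.6% were above 0. Without Myd88+/+ replicate 2 these medians were 0.11 and -0.02, and without Myd88-/- replicate 1 they were 0.20 and 0.15. A difference beyond 1 on the log2 scale, in either direction, was seen for 0 of 8 receptors and 4.79% of all genes. With the brightest probe and this scaling, the 95% interval of each of the 8 lay between -1 and 1 on the log2 scale, which was not so for every other probe or setting. In bulk tissue, fewer cells of a type and less RNA per cell cannot be told apart, and this holds for each value here. Without the bright Tlr7 probe, 1 of 7 receptors had an unadjusted p under 0.05 and 6 of 7 did not overlap.

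**Figure D3:**
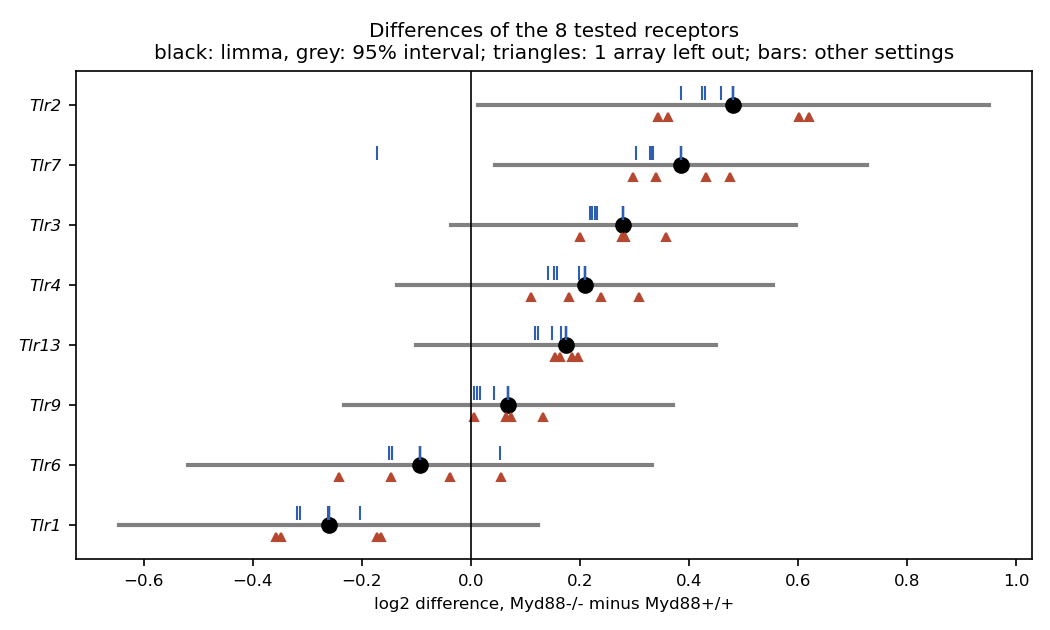
Log2 difference between Myd88-/- and Myd88+/+ arrays (horizontal axis) for the 8 tested receptors, with limma's estimate (black), its 95% interval (grey), the 4 fits with 1 array left out (triangles) and the other processing settings (blue bars). The intervals of Tlr2 and Tlr7 begin just above 0, those of the other 6 cross it, and 1 bar of Tlr7, the mean of its probes, lies at -0.17.

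Of the partners with which the receptors bind ligand, 5 of 6 were tested, and 3 had an unadjusted p under 0.05, all lower in Myd88-/- mice, beside 6.83% of all genes in that direction. Cd36, a scavenger receptor that hands lipids to Tlr2, was at 1.22 and 1.5 in Myd88-/- mice and at 2.25 and 2.22 in Myd88+/+ mice, a difference of -0.88 (SE 0.14, adjusted p = 0.196). Cd36 is also known from fat cells and endothelium, and all 7 tested adipocyte markers had negative differences (median -0.67), with a summed linear signal of 167 and 263 times the 75th percentile in Myd88-/- mice and 359 and 356 in Myd88+/+ mice. The part of these cells in the value of Cd36 was not tested.

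Ly86 (MD-1), which pairs with the TLR-like protein Cd180 on B cells, gave -0.69 (SE 0.17, adjusted p = 0.227), and Cd180 itself was above background on 0 arrays. Lbp, the carrier of lipopolysaccharide, gave -0.59 (SE 0.16, adjusted p = 0.250). The immediate partners of Tlr4 were not among these. Cd14, which loads lipopolysaccharide onto Tlr4, differed by 0.24 (SE 0.11, adjusted p = 0.361), and Ly96 (MD-2), which binds it, by 0.10 (SE 0.17, adjusted p = 0.795) with overlapping arrays.

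Unc93b1 is the chaperone that carries the nucleic acid sensors from the endoplasmic reticulum to endosomes. It read 1.62 and 1.53 in Myd88-/- mice and 2.07 and 1.99 in Myd88+/+ mice, a difference of -0.45 (SE 0.10, 95% interval -0.75 to -0.15, adjusted p = 0.22). Its arrays did not overlap. Of the 9 chaperone and trafficking genes, 3 had an unadjusted p under 0.05, beside 16.6% of all genes. The others were Cnpy3, a folding partner of gp96, at 0.32 (adjusted p = 0.264) and its relative Cnpy4 at -0.41 (adjusted p = 0.253). Among the 5 endosomal proteases that trim these receptors, cathepsin K (Ctsk) differed by -0.57 (adjusted p = 0.210) and cathepsin B (Ctsb) by -0.32 (adjusted p = 0.263), and the remaining 3 had a higher unadjusted p.

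Adaptors, kinases and interferon regulatory factors were tested in 22 of 24 cases, of which 3 had an unadjusted p under 0.05 in the higher direction and 1 in the lower, beside 9.81% and 6.83% of all genes. Tirap, which bridges Tlr2 and Tlr4 to MyD88, differed by 0.47 (SE 0.14, adjusted p = 0.261), Tab1, a subunit of the TAK1 kinase complex, by 0.36 (SE 0.10, adjusted p = 0.241) and Myd88 by 0.35 (SE 0.11, adjusted p = 0.264). Ticam1, the adaptor of the MyD88-independent route, differed by 0.26 (SE 0.12, adjusted p = 0.388). The lower one was Ikbke, an inducible kinase of the interferon route, at -4.10 and -3.73 in Myd88-/- mice and -2.60 and -2.90 in Myd88+/+ mice (difference -1.16, SE 0.20, adjusted p = 0.203). Ikbke was well above background on 3 of 4 arrays.

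The inhibitors of TLR signalling were all tested, and 8 of 10 had a difference below 0, whereas 59.6% of all genes were above 0. The unadjusted p was under 0.05 for 3 of them, all lower, beside 6.83% of all genes. Socs1, a suppressor of cytokine signalling, read -2.72 and -2.75 in Myd88-/- mice and -1.92 and -1.62 in Myd88+/+ mice, a difference of -0.97 (SE 0.15, adjusted p = 0.194). The phosphatases Inpp5d (SHIP1) and Ptpn6 (SHP-1), both abundant in blood cells, differed by -0.85 (SE 0.18, adjusted p = 0.209) and -0.50 (SE 0.17, adjusted p = 0.283). The part of blood cells, whose markers are given below, in these values was not tested.

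Transcripts that TLR ligands induce were mostly dim, and 11 of 19 could be tested. Their median difference was 0.01, with 6 above 0 and 5 below. Il6, Il10, Il12a, Il12b, Ifnb1 and Ptgs2, a set of classical induced genes, were above background on 0 arrays in either genotype. Ccl5, a chemokine made by T cells among others, read 0.26 and 0.51 in Myd88-/- mice and 3.07 and 2.01 in Myd88+/+ mice, a difference of -2.16 (SE 0.41, adjusted p = 0.204). Cxcl1, a chemokine for neutrophils, differed by 0.71 (SE 0.20, adjusted p = 0.251). The IL-1 family receptors, which share the TIR domain and MyD88 with the TLRs, were tested in 3 of 5 cases, with 0 under an unadjusted p of 0.05.

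Across all 8 pathway lists, 66 of 80 genes were tested and 0 passed the adjusted threshold. An unadjusted p under 0.05 was reached by 17 of 66, 5 higher and 12 lower, beside 9.81% higher and 6.83% lower among all genes. The list of other mouse TLRs held Tlr11 and Tlr12, receptors for profilin of protozoa. Tlr11 was above background on 2 of 4 arrays and was not tested. Tlr12 read -2.96 and -2.61 in Myd88-/- mice and -0.96 and -2.12 in Myd88+/+ mice, and its difference of -1.25 (SE 0.45, 95% interval -2.54 to 0.04) had an adjusted p of 0.309.

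Cells that carry TLRs were read from marker genes. Of 10 B cell markers, 8 were tested and all 8 were lower in Myd88-/- mice without overlap, beside 18.7% of all genes, though some of them passed the filter through Myd88+/+ mice only. They had a median difference of -3.31, or -2.33 when markers not detected in Myd88-/- mice were held at the detection limit. Their summed linear signal, relative to the 75th percentile, was 3.38 and 3.27 in Myd88-/- mice and 17.5 and 10.2 in Myd88+/+ mice. Among them, Ms4a1 (CD20) and Fcrla were not well above background on either Myd88-/- array, and Ms4a1 was at least 28.5-fold lower there (adjusted p = 0.194, limma). The direction is opposite to the study's flow cytometry. In submandibular glands of male mice, it found more B220+ cells and more IgA+ plasma cells with MyD88 deficiency. Why RNA and cell counts differ was not tested. All 11 T cell markers had negative differences, 7 of them without overlap, beside 18.7% of all genes in that direction. Their median was -2.71, with a sum of 12.8 and 12.6 against 25.8 and 18.3. The largest was Cd3d (-4.45), whereas Cd3e (-0.06), Cd4 (-0.04) and Cd8b1 (-0.06) had overlapping arrays. Cd8a passed the filter through Myd88+/+ mice only. The B cell median was -1.15 after normexp background correction, -0.90 over markers above background on all 4 arrays and -1.53 without Myd88-/- replicate 1, and the T cell median was -1.14, -1.39 and -1.56. Beside these, the differences of Tlr9, Tlr1 and Tlr6, which B cells are known to express, were 0.07, -0.26 and -0.09, and those of the bright and the second probe of Tlr7, also known from B cells, were 0.39 and -0.73.

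Macrophage markers differed less. The median difference of the 13 macrophage markers was 0.03, 8 above 0 and 5 below, and their sum was 89.4 and 88.2 in Myd88-/- mice and 83.1 and 81.3 in Myd88+/+ mice. This sum mostly follows Itgam and Csf1r, the brightest of them, which differed by 0.23 and 0.03. The highest difference was that of Cd163 at 2.76 (adjusted p = 0.358) and the lowest that of Lyz2 at -0.44 (adjusted p = 0.561). Cd163 read -1.47 and -3.27 in Myd88-/- mice and -3.78 and -6.49 in Myd88+/+ mice. It was not well above background on Myd88+/+ array 2 and passed the filter through Myd88-/- mice only. The unadjusted p was under 0.05 for 1 of the 13, beside 16.6% of all genes in either direction and 9.81% in the higher direction. This was Emr1 (F4/80), at 0.65 (adjusted p = 0.204). Of the dendritic cell markers, 8 of 9 were tested and 6 had a difference below 0 (median -0.38, sum 273 and 288 against 251 and 284), from Cd209a at -2.03 (adjusted p = 0.194) to Ccr9 at 0.19 (adjusted p = 0.563). This median was -0.06 over markers above background on all 4 arrays, -0.19 after normexp and -0.20 without Myd88+/+ replicate 1. Cd209a and Clec9a passed the filter through Myd88+/+ mice only. The plasmacytoid marker Siglech differed by 0.08, and Bst2, also of this list, by -0.36 (adjusted p = 0.294). Siglech read 8.06 and 8.14 in Myd88-/- mice and 7.93 and 8.11 in Myd88+/+ mice. It was the brightest of these dendritic cell markers, and their sum mostly follows it. In which cells of the gland each receptor was transcribed cannot be told from these arrays, and the part of each cell type in the receptor values was not tested.

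Markers of other tissues differed between the genotypes as well. The 8 tested skeletal muscle markers had a median of -4.14 and a sum of 2.80 and 2.86 against 23.5 and 128. Of them, Myh4 and Myh2 were detected in Myd88+/+ mice only and so passed the filter through that group. Myh1 was not well above background on Myd88-/- array 2 and passed through Myd88+/+ mice only as well. Neutrophil markers had a median of -0.46 over 7 tested, and endothelial markers -0.05 over 8. The 4 tested plasma cell markers split, 2 above 0 and 2 below, with a median of -1.87, or -1.48 at the detection limit. They ran from Igj at -5.87 (adjusted p = 0.203) to Derl3 at 0.36 (adjusted p = 0.252). Their summed signal was 63.7 and 59.9 in Myd88-/- mice against 51.2 and 50.5. This sum mostly follows Derl3, the brightest of them, which read 5.98 and 5.90 in Myd88-/- mice and 5.58 and 5.59 in Myd88+/+ mice. Igj read -6.27 and -3.44 against 1.28 and 0.76. It was not well above background on Myd88-/- array 1 and passed the filter through Myd88+/+ mice only. In the median of -1.48 it was not held at the detection limit. The 10 salivary gland markers had a median of 0.11, 7 above 0.

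**Figure D4:**
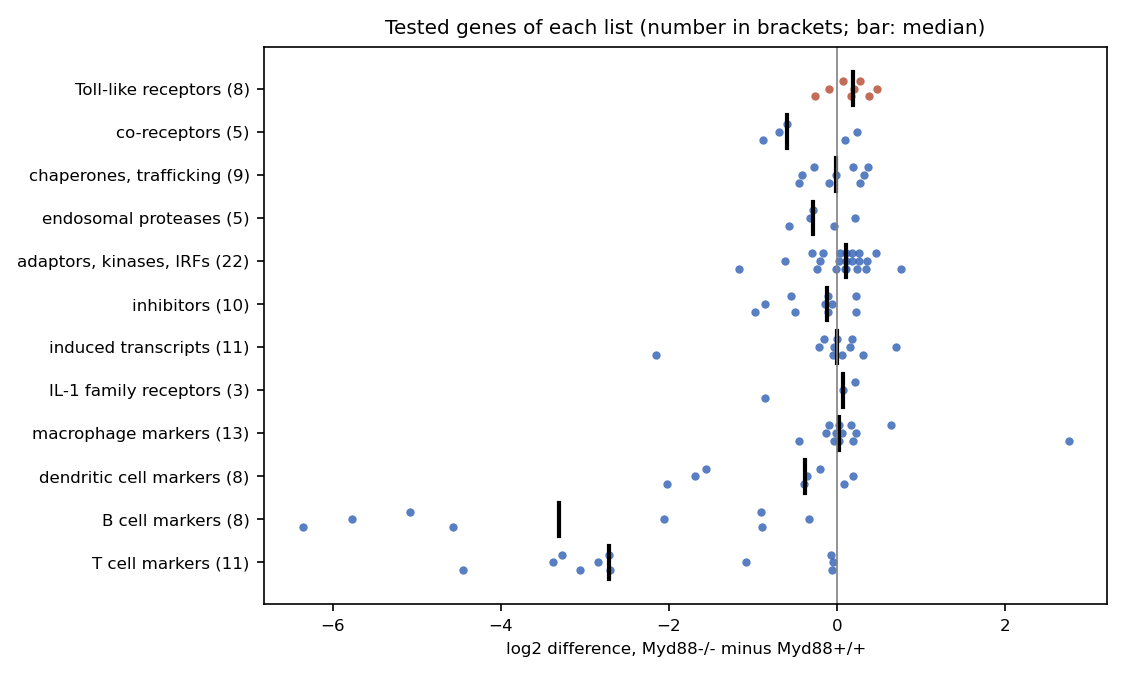
Log2 difference between Myd88-/- and Myd88+/+ arrays (horizontal axis) for each tested gene of 12 lists, with 1 point per gene, the number tested in brackets and the median as a bar. The TLRs (red) lie between -0.26 and 0.48, whereas B cell and T cell markers reach below -4, partly through genes at the detection limit.

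The pattern over the 4 arrays was compared between the receptors and 157 genes of the lists, by the root mean square distance of values centred on each gene's mean. For Tlr2 the nearest were Lpo, the salivary peroxidase, at a distance of 0.03, then Irak3, an inhibitor of TLR signalling, and Tab1, both at 0.14, and 19 genes lay within 0.2. For the bright Tlr7 probe the nearest were Ccl4 at 0.05 and Cnpy3 and the endothelial Emcn, both at 0.06, and 47 genes lay within 0.2. With 4 arrays, such likeness describes these samples only.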

How the data were processed

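Salivary gland RNA of 2 Myd88-/- and 2 Myd88+/+ samples was measured on 1-colour arrays. For each array the authors deposited the Agilent Feature Extraction 10.7.3.1 output, with probe positions in mm9. The deposited processed intensity is corrected for background and spatial trend by that software, which replaces values of dim spots by a surrogate and does not normalize across arrays. A further processed table was left out because the samples behind its 4 value columns are not named.

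The deposited intensity was put on the log2 scale and the 75th percentile of the array was subtracted. Spots marked as outliers were dropped, and repeated spots of a probe were averaged. Probes well above background (more than 0.5 of their spots) on both arrays of a genotype were tested, each gene being represented by its brightest one. The genotypes were compared by moderated linear models (limma 3.58.1, lmFit and eBayes, R version 4.3.3), with Benjamini-Hochberg adjustment over 22317 genes at 0.05. The scripts were tested on simulated data. The number of arrays limits the precision.

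The members, the 8 pathway lists and the 10 cell type lists (183 genes, all on the array, some through RefSeq synonyms) were chosen with earlier results of these data known. Named are all members, up to 3 genes per pathway list with the smallest unadjusted p under 0.05 and arrays that did not overlap, Myd88, Cd14, Ly96, Unc93b1, Cd180 and Ticam1, the extremes of cell type lists, and for Tlr2 and Tlr7 the 3 list genes nearest in pattern. Il6, Il10, Il12a, Il12b, Ifnb1, Ptgs2, Siglech, Bst2, Emr1, Cd3e, Cd8a, Cd8b1 and Myh2 were named after their values were seen. So were Cd3g, Cd5, Lat, Itgam, Csf1r, Clec9a and Myh1. The alternatives were 15 planned settings. A fit with a crossed replicate block and the differences within pairs of arrays were added after seeing the data.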

Additional observations from a re-analysis of the deposited data

How the results depend on the processing

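In 16 alternative settings 0 of the receptors passed the adjusted threshold, the lowest adjusted p being 0.104 (Tlr7, trended and robust moderation). The sign held for Tlr1, Tlr2, Tlr3, Tlr4, Tlr9 and Tlr13 in all 16. Tlr6 turned to 0.053 with normexp and ranged from -0.24 to 0.055 with 1 array left out (0.055 without Myd88-/- replicate 1), and Tlr7 to -0.17 with the mean of its probes. With 1 array left out, Tlr2 ranged from 0.34 to 0.62 and Tlr7 from 0.30 to 0.47. Receptors with an unadjusted p under 0.05 numbered 2, and 1 with quantile normalization, with the mean of a gene's probes, with scaling over detected probes or with the methods' t-test, but 0 with median scaling, no filter on dim probes, the replicate block or any 1 array left out. Arrays without overlap fell from 7 receptors to 1 with median scaling. Of all genes, 79 passed the adjusted threshold with normexp, 402 with median scaling (69 higher, 333 lower), 482 with trended and robust moderation, 1 with the methods' t-test and 0 otherwise. An unadjusted p under 0.05 was reached by 3714 genes, 995 with median scaling, 2410 with the replicate block and 1354 to 3064 with 1 array left out. The median difference of all genes was 0.06, and 0.011, 0.0045 and 0.010 with quantile normalization, detected probes and median scaling. The share of genes under that p that was higher was 59.0%, and 48.7% with quantile normalization, 46.7% with detected probes and 24.1% with median scaling. Pathway genes with an unadjusted p under 0.05 numbered 17, and 3 with median scaling, 8 with no filter, 10 with the replicate block and 2 to 9 with 1 array left out, and 1 passed the adjusted threshold with median scaling and 1 with trended and robust moderation.

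The labels number the arrays 1 and 2 in each genotype, but deviations of same-numbered arrays correlated negatively over genes (r = -0.373), so that the replicate block pairs arrays that share only a number. With the crossed pairing, added after seeing the data, 0 genes passed the adjusted threshold and 4159 had an unadjusted p under 0.05. Signal near background limits Tlr5, Tlr8 and the second Tlr7 probe. Where a fit left out an array, the lone array of its genotype was assumed to vary like the others. The causes of these shifts were not tested.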

Other observations

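Pairing the arrays with like numbers of detected probes (Myd88-/- 1 with Myd88+/+ 2, Myd88-/- 2 with Myd88+/+ 1), a choice made after seeing the data, gave 2 differences per receptor. Tlr2 differed by 0.50 and 0.46, the bright Tlr7 probe by 0.34 and 0.43, Tlr3 by 0.36 and 0.20, and Tlr1 by -0.25 and -0.27. Tlr4 differed by 0.28 and 0.14, Tlr13 by 0.14 and 0.21, Tlr9 by 0.13 and 0.01, and Tlr6, the only one of the 8 with both signs, by -0.29 and 0.11. How close the 2 differences lie depends on the pairing. Paired by label number instead, Tlr2 differed by 0.22 and 0.74, the bright Tlr7 probe by 0.52 and 0.25, and Tlr1 by -0.45 and -0.08.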
